A study of Mus musculus with 35 samples.

Results

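The genes described here are 33 genes of cholesterol and fatty acid synthesis, with their regulators and the genes of cholesterol efflux, chosen by name among the 48709 genes counted in each library. They were chosen with earlier results of these data known. Their counts beside the shares of all genes tested therefore describe the members and are no test of the list. They comprise 7 enzymes of the mevalonate steps, 11 enzymes from squalene to cholesterol, 6 enzymes of fatty acid synthesis, 4 genes of the SREBP system, the sterol carrier Stard4, and 4 genes of efflux and the liver X receptor (LXR). All 33 passed the filter on low counts that left 13819 genes for testing. RNA was sequenced from cytotoxic T lymphocytes (CTLs) of OT-I mice, whose CD8+ T cells carry a transgenic receptor for an ovalbumin peptide, in 35 libraries of 7 groups with 5 replicates each. The cells of every group had been primed with antibodies to CD3 and CD28 and expanded in IL-2. They were collected at 0 h or after 24 h of culture, with the pH set to 7.4, 7 or 6.6 by hydrochloric acid and each pH given once without cytokine and once with IL-2 at 200 IU/mL. The labels give neither the age of the mice nor what a replicate number stands for. The p-values thus measure the spread between these libraries that remains after differences between replicate numbers are fitted. Dead cells had been removed on a density gradient before RNA was taken.

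Cholesterol is built from acetyl-CoA through mevalonate, squalene and lanosterol, and fatty acids are built from the same precursor. The genes of these enzymes are activated by the sterol regulatory element binding proteins (SREBPs), membrane-bound transcription factors that SCAP carries from the endoplasmic reticulum to the Golgi apparatus for cleavage, while INSIG holds SCAP back when sterols are plentiful. For cholesterol, LXR works in the opposite sense. It is activated by oxysterols and raises the exporters ABCA1 and ABCG1 and the ubiquitin ligase MYLIP, which removes lipoprotein receptors. In T cells, activation and growth signals are known to raise SREBP activity, and membrane synthesis is needed for clonal expansion.

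The total count on genes was 16721319 to 34033340 per library, with a median of 24730020, and the shallowest library was replicate 1 at pH 6.6 with IL-2. The 7 markers of CD8+ T cells were detected in every group, at a summed 2275 CPM (CPM, the count per gene relative to a library size scaled by the TMM method) or more, whereas the 4 B cell markers summed to at most 6.10 CPM and the 6 macrophage and monocyte markers to at most 3.99 CPM. The 2 NK cell markers were higher and moved with the groups. They summed to 83.4 to 95.0 CPM at 0 h, 43.0 to 45.8 CPM at pH 7.4 with IL-2 and 19.4 to 33.2 CPM at pH 6.6 with IL-2. Without IL-2 they summed to 20.6 to 40.8 CPM at pH 7.4 and 8.27 to 12.1 CPM at pH 6.6, and their part in the results was not tested. Replicate 1 was the low library for some genes of synthesis and its control. It had the lowest value in 12 of the 13 cases in which 1 library lay far from the other 4 of its group, among 231 combinations of gene and group examined, and 6 of these were at pH 7.4 with IL-2. The number of such cases is near what chance gives, and genes of the same library are not independent cases. Some results are also given without replicate 1, among them medians of the synthesis enzymes, whereas most values of single genes are given only with it. Reads that aligned to several places were not counted, so the levels of Acat2, Acaca, Fdps and Idi1, of whose 50-base windows only 60.9%, 69.6%, 73.8% and 82.3% were found in no other gene, are uncertain. Fdps shares 26.7% of its exon bases with the gene model Gm43738 on the same strand and Tm7sf2 shares 12.1% with Vps51. Fdft1 shares 18.3% of its exon bases with Ctsb on the opposite strand. Opposite-strand shares were also 13.2% for Scap, 12.1% for Hmgcs1 and 9.2% for Idi1, and smaller for Cyp51, Lss, Srebf1 and Elovl6. The strand setting of the counting is not given in the sources used here.

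Start site regions are shown because most synthesis genes moved together. RefSeq promoter windows of GRCm38.p6, from 250 bases before to 50 bases after the transcript start, were found for 26 of the 33 genes. Of the 7 genes without an entry, Sqle, Fdft1, Fdps, Scd1 and Scd2 are synthesis enzymes and the others are Abcg1 and Stard4. Of the 19 synthesis enzymes with a window, 16 held the letters CCAAT on either strand, the box bound by NF-Y, a factor that works beside SREBP at sterol genes. This was 84.2% of these genes, against 42.8% of the 9977 tested genes with a window and 37.4% of all windows. The letters GGGCGG, an Sp1 box, were in 15 of the 19 (78.9%), against 67.6% of the tested genes. CACGTG, an E-box, was in 3 of the 19 (15.8%), against 11.6%. TCACNCCAC, a core of the sterol response element, was in 1 of the 19, Hmgcs1, where it began 137 bases before the start (position -137), against 1.3% of the tested genes. None of the 4 motifs contains another, the window of Acaca lies at an internal start, and a match or its absence describes only the letters of the window. The windows of 4 genes that rose with IL-2 and of Abca1, which fell, are printed 5′ to 3′ on the gene's strand with the sterol response element core and CCAAT (or its reverse complement ATTGG) in capitals. The window of Abca1 holds neither, nor does that of Nr1h2, which also fell. The window of Mylip, which fell as well, holds CCAAT or ATTGG 3 times. Those of Acat2 and Acaca, which rose, hold neither motif, so the printed windows do not stand for all members.
Hmgcs1 promoter, chr13:119690101-119690400, plus strand: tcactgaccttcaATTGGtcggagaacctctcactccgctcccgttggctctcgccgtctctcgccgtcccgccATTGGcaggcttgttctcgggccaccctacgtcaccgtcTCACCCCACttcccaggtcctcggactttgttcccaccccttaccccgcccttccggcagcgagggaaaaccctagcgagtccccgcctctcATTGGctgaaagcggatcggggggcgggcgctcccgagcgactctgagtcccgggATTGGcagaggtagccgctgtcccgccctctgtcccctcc
Cyp51 promoter, chr5:4104648-4104947, minus strand: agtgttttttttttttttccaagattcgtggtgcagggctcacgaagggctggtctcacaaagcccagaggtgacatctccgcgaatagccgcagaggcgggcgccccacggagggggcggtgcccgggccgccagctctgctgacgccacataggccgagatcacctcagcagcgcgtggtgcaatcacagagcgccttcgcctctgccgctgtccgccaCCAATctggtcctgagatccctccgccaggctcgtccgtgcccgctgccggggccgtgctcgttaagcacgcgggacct
Insig1 promoter, chr5:28071162-28071461, plus strand: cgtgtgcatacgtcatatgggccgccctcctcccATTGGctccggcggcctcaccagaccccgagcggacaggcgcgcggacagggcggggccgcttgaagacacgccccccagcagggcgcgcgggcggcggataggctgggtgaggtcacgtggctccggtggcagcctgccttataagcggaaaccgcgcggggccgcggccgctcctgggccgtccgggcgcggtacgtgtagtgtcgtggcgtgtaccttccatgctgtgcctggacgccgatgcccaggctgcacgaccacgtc
Fasn promoter, chr11:120824498-120824797, minus strand: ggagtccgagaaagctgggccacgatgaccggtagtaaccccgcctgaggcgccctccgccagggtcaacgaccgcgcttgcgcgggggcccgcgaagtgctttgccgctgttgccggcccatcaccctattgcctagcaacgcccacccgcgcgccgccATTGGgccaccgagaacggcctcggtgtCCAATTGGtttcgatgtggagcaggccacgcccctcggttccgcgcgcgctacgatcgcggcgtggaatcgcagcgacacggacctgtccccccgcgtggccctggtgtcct
Abca1 promoter, chr4:53159846-53160145, minus strand: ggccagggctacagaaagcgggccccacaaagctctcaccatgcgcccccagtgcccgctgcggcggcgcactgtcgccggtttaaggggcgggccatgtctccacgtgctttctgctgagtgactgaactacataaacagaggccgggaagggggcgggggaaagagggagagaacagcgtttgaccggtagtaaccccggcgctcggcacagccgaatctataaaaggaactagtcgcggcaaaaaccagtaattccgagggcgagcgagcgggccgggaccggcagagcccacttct

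The balance of synthesis and efflux genes moved with both IL-2 and acid. The mean log2 CPM of the 24 synthesis enzymes was 6.19 ± 0.22 (SD, n = 5) at 0 h. With IL-2 it was 6.39 ± 0.22 at pH 7.4, 6.17 ± 0.10 at pH 7 and 5.09 ± 0.15 at pH 6.6. Without IL-2 it was 4.29 ± 0.05 at pH 7.4, 4.33 ± 0.03 at pH 7 and 4.54 ± 0.07 at pH 6.6. The exporter genes Abca1 and Abcg1 and the LXR target Mylip, which is not an exporter, are together called efflux genes here. The mean log2 CPM of these efflux genes ran the other way at pH 7.4, from 2.63 ± 0.25 with IL-2 to 5.37 ± 0.17 without it. At pH 6.6 the efflux genes lay close together, at 3.31 ± 0.13 with IL-2 and 3.75 ± 0.18 without it. The difference of synthesis minus efflux was thus 3.76 ± 0.46 at pH 7.4 with IL-2, 1.78 ± 0.24 at pH 6.6 with IL-2, 0.79 ± 0.20 at pH 6.6 without IL-2 and -1.07 ± 0.15 at pH 7.4 without IL-2. These means are descriptions of the lists and were not tested.

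**Figure D1:**
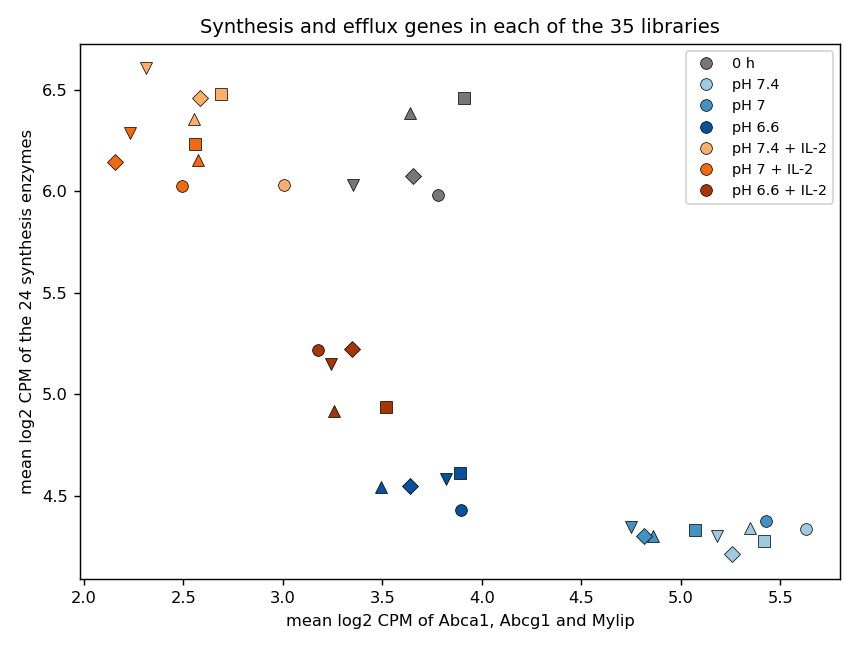
Each point is 1 of the 35 libraries, with the mean log2 CPM of Abca1, Abcg1 and Mylip on the x axis and of the 24 synthesis enzymes on the y axis, in the colour of its group and the marker shape of its replicate. The 10 libraries of the pH 7 and pH 7.4 groups with IL-2 lie at the upper left, those at pH 7.4 and pH 7 without IL-2 at the lower right, and the libraries at pH 6.6 between them along the x axis.

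Per kilobase of exon, the genes spanned a wide range at pH 7.4 with IL-2. The desaturase Scd2 stood highest, at 218 CPM per kb, followed by Acly at 83.5, Hmgcs1 at 74.1, Cyp51 at 73.7, Srebf2 at 56.1 and Fasn at 50.9 CPM per kb. The lowest enzymes were Idi1 at 2.67 and Tm7sf2 at 1.70 CPM per kb, and Abca1 was lowest of all, at 0.109. Without IL-2 at pH 7.4, Hmgcs1 was at 15.2 CPM per kb and Abca1 at 2.65. These levels depend on the exon models and, for the genes named above as uncertain, on reads lost to other copies.

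The comparison of pH 6.6 with pH 7.4 in the presence of IL-2 asked what acid does to CTLs that receive the cytokine. Nearly the whole synthesis programme was lower at pH 6.6: 23 of the 24 enzymes, all 4 genes of the SREBP system and Stard4 fell, whereas Abcg1, Mylip and Nr1h2 rose. In this comparison 40.9% of all genes tested were called lower and 35.4% higher, by edgeR's quasi-likelihood test at a Benjamini-Hochberg adjusted p of 0.05. Of the members, 28 of 33 were lower and 3 of 33 higher. The median log2 fold change of the synthesis enzymes was -1.36, against -0.067 for all genes tested, and without replicate 1 it was -1.39. All 31 of these calls went the same way in 5 of 5 replicate pairs, and for 29 of them the 2 groups of libraries did not overlap. The same counts were not made over all genes tested, so they describe the members without setting them apart. None of the 31 calls was lost under the 11 alternatives, but Idi1 was not tested under the stricter filter, as its lowest count in a library was 8. As these are bulk cultures, fewer cells that express a gene and less RNA per cell cannot be told apart.

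Of the mevalonate enzymes, all 7 fell, by 0.68 to 1.79 on the log2 scale. Hmgcs1, the synthase that makes HMG-CoA and the only one of these genes with a sterol response element core in its printed window, had 209.8, 389, 351, 361 and 390.1 CPM in replicates 1 to 5 at pH 7.4 with IL-2. At pH 6.6 with IL-2 it had 199, 191, 184, 202 and 193 CPM. The 5 libraries at pH 6.6 lay close together below all those at pH 7.4, and replicate 1 at pH 7.4 was only just above them. The log2 fold change was -0.78 (SE 0.12, adjusted p = 7.2e-07 by edgeR), and -0.89 without replicate 1. The isomerase Idi1 had the largest difference of the group, -1.79 (SE 0.27), on counts of only 51 to 72 per library at pH 6.6. The prenyl synthase Fdps fell by 1.56, mevalonate kinase (Mvk) by 1.53 and the thiolase Acat2 by 1.40.

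Of the enzymes from squalene to cholesterol, 10 of 11 fell. The lanosterol demethylase Cyp51 had 222, 358, 333, 327 and 388 CPM at pH 7.4 and 79.3, 62.2, 65.7, 77.0 and 80.1 CPM at pH 6.6. No library at pH 6.6 came near those at pH 7.4, and the difference was a 4.40-fold fall (log2 fold change -2.14, SE 0.13, adjusted p = 9.4e-16 by edgeR). The ketoreductase Hsd17b7 fell further, from 43.4, 62.4, 54.8, 51.5 and 48.6 CPM to 13.8, 6.72, 6.92, 12.3 and 12.9 CPM, a log2 fold change of -2.29 (SE 0.24). Squalene epoxidase (Sqle), a controlled step of the pathway, fell by 1.64, lanosterol synthase (Lss) by 1.5, Dhcr7 by 1.42, Ebp by 1.31, Msmo1 by 1.20, Fdft1 by 1.01, Nsdhl by 0.98 and Sc5d by 0.81. Tm7sf2, a sterol reductase, was the exception. It had 5.03, 6.94, 6.77, 9.39 and 9.17 CPM at pH 7.4 and 7.97, 9.48, 7.89, 8.02 and 8.33 CPM at pH 6.6, groups that overlap (log2 fold change 0.16, SE 0.14, adjusted p = 0.30 by edgeR).

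All 6 fatty acid enzymes fell. Fatty acid synthase (Fasn) had 474, 674, 532, 586 and 517 CPM at pH 7.4 and 181, 159, 126, 202 and 195 CPM at pH 6.6, with no overlap, a 3.18-fold difference (adjusted p = 2.3e-09 by edgeR). Scd1, the desaturase that makes oleate, had the largest fall of all members, 5.53-fold (log2 fold change -2.47, SE 0.20). Its values were 85.1, 167, 137, 155 and 229 CPM at pH 7.4 and 34.5, 25.2, 24.0, 28.1 and 28.2 CPM at pH 6.6. The carboxylase Acaca fell by 1.61, Scd2 by 1.01, the citrate lyase Acly by 0.86 and the elongase Elovl6 by 0.72 on the log2 scale.

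Among the regulators, Insig1, itself an SREBP target, had 46.8, 93.2, 84.7, 92.7 and 103 CPM at pH 7.4 and 32.5, 35.7, 39.3, 41.8 and 42.9 CPM at pH 6.6, a log2 fold change of -1.09 (SE 0.18). Scap fell by 0.88, Srebf1 by 0.79 and Srebf2 by 0.40, the smallest change of the SREBP system. Stard4 fell by 1.54. The efflux genes were low in IL-2 and rose in part: the exporter Abcg1 went from 15.3, 13.02, 12.7, 13.4 and 12.6 CPM to 20.97, 30.3, 29.99, 22.6 and 22.2 CPM (log2 fold change 0.91, SE 0.10), without overlap. Mylip rose by 0.74 and Nr1h2, which encodes LXR beta, by 0.75. Abca1 was low in both groups, with 16 to 44 counts per library at pH 7.4 and 19 to 51 at pH 6.6. Its log2 fold change of 0.47 (SE 0.24) did not pass the test (adjusted p = 0.072 by edgeR), but it was past the threshold with RLE normalization (0.53, adjusted p = 0.043), with DESeq2 (0.53, adjusted p = 0.028) and without replicate 1 (0.80, adjusted p = 0.0045).

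The share of reads that fell in no counted feature moved with these groups. It was 3.91 to 5.18% at pH 7.4 with IL-2 and 7.34 to 8.83% at pH 6.6 with IL-2. The summed level of the CD8+ T cell markers, which include Gzmb and Prf1, moved as well, from 9392 to 12079 CPM at pH 7.4 to 2924 to 4298 CPM at pH 6.6. Their part in the results was not tested.

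**Figure D2:**
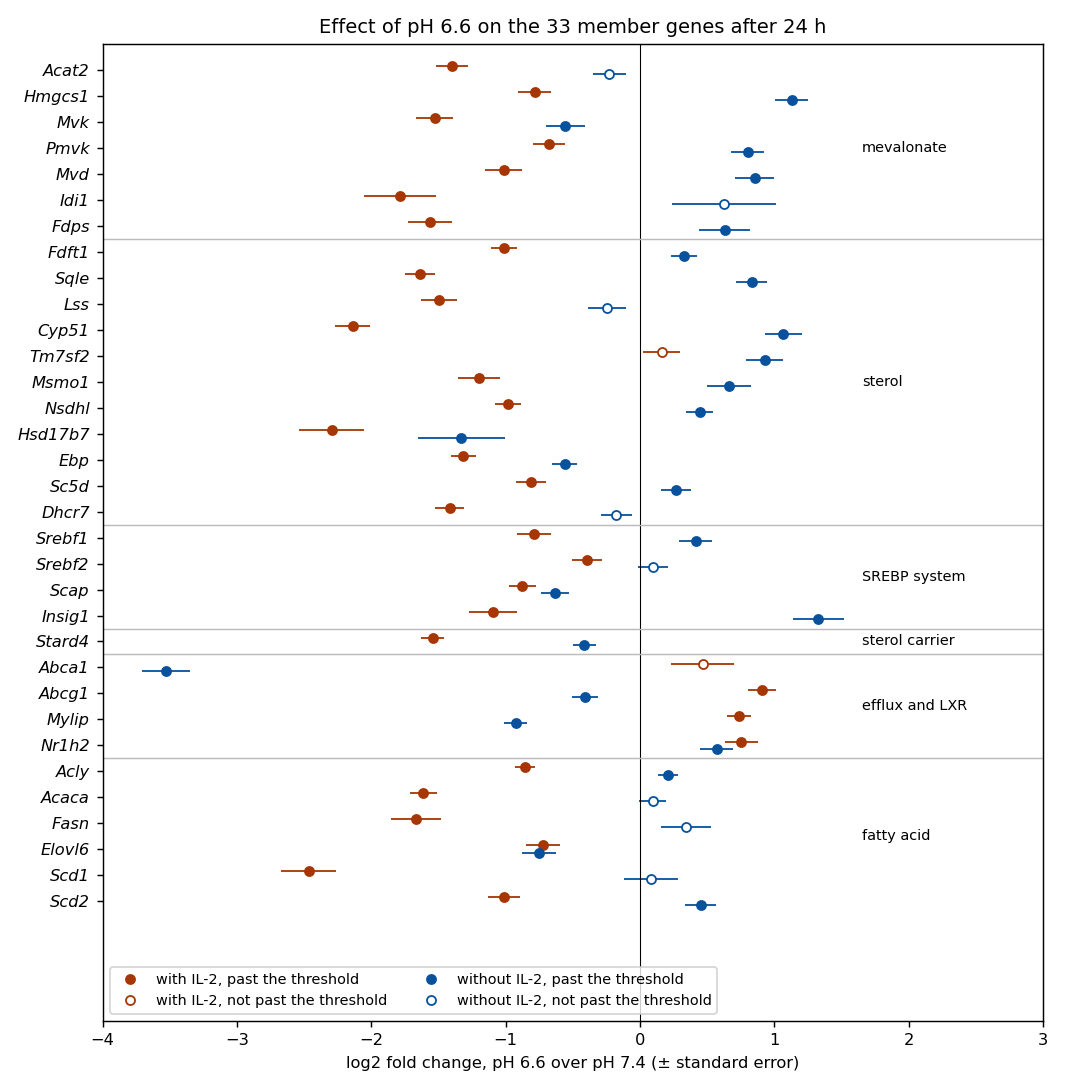
Log2 fold change of pH 6.6 over pH 7.4 (x axis, bars are the standard error of the fit) for each of the 33 genes (y axis, ordered by role), with IL-2 in brown and without IL-2 in blue. Filled points passed the test and open points did not, and 3 genes rose and 28 fell with IL-2, whereas 16 rose and 9 fell without it.

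Mild acid in the presence of IL-2 moved 7 members, all downward. In the comparison of pH 7 with pH 7.4 with IL-2, 9.83% of all genes were called lower and 9.15% higher, and 7 of the 33 members were lower and 0 higher by edgeR (1 higher at an unadjusted p under 0.05, and 0 higher by DESeq2). The desaturases stood out. Scd1 had 57.5, 67.3, 58.6, 74.2 and 98.5 CPM at pH 7, against the values from 85.1 to 229 CPM at pH 7.4, a log2 fold change of -1.12 (SE 0.19) with overlapping groups. Scd2 fell by 0.76 (SE 0.12), from 1190.3 ± 296 to 698 ± 138 CPM (SD, n = 5). Abcg1 also fell, by 0.54 (SE 0.11), which is the opposite direction to its change at pH 6.6. These 3 calls were kept under every alternative run. The sterol enzymes Cyp51 (-0.35), Sc5d (-0.32), Fdft1 (-0.30) and Ebp (-0.28) were called lower as well, but all 4 calls were lost without the replicate block and without each of replicates 2 to 5. Fasn (-0.18, SE 0.18), Hmgcs1 (-0.10, SE 0.12) and Sqle (-0.22, SE 0.11) did not pass the test. The median of the synthesis enzymes was -0.17, and -0.24 without replicate 1, when 10 members were called lower and 1, Mylip, higher.

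Without IL-2, acid moved the pathway in mixed directions. The comparison of pH 6.6 with pH 7.4 without IL-2 asked for the effect of acid in cells that had lost the cytokine. In it 31.6% of all genes were called higher and 35.4% lower, and 16 members were higher and 9 lower. Of the synthesis enzymes 13 rose, 4 fell and 7 did not pass the test, with a median log2 fold change of 0.33 (0.32 without replicate 1), against -0.034 for all genes. Hmgcs1 had 69.4, 71.4, 72.3, 71.1 and 64.2 CPM at pH 7.4 and 129.9, 174, 154, 145 and 165 CPM at pH 6.6, so that every library at pH 6.6 was well above those at pH 7.4. This was a 2.19-fold rise (log2 fold change 1.13, SE 0.12, adjusted p = 1.6e-09 by edgeR). Insig1 rose the most, from 11.5, 10.1, 12.03, 12.5 and 14.3 CPM to 20.4, 34.1, 37.0, 29.3 and 34.7 CPM, or 2.51-fold. Cyp51 rose by 1.07, Tm7sf2 by 0.93, Mvd by 0.85, Sqle by 0.83, Pmvk by 0.80, Msmo1 by 0.66 and Fdps by 0.63 on the log2 scale. Scd2, Nsdhl, Srebf1, Fdft1, Sc5d and Acly rose by 0.21 to 0.45, of which the calls of Sc5d and Acly were lost under some alternatives. Nr1h2 rose by 0.57.

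Other members of the same pathway went down in the same cells. Hsd17b7 fell from 4.30, 3.53, 4.19, 3.42 and 3.08 CPM to 1.599, 1.503, 1.14, 1.31 and 1.88 CPM (log2 fold change -1.33, SE 0.32), without overlap. Elovl6 fell by 0.75, Scap by 0.63, Ebp by 0.56, Mvk by 0.56 and Stard4 by 0.42 on the log2 scale. Elovl6, Scap, Ebp, Mvk, Stard4 and Hsd17b7 were thus lower at pH 6.6 with and without IL-2. Fasn (0.34, SE 0.19, with groups that did not overlap), Idi1 (0.62, SE 0.39), Acaca (0.09, SE 0.10), Scd1 (0.08, SE 0.20), Srebf2 (0.09, SE 0.11), Dhcr7 (-0.18, SE 0.11), Acat2 (-0.23, SE 0.12) and Lss (-0.25, SE 0.14) did not pass the test. With only the groups compared, edgeR called Fasn higher (0.348, adjusted p = 0.0021) and Lss lower (-0.248, adjusted p = 0.035). Without replicate 5 it called Acat2 lower (-0.278, adjusted p = 0.045).

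Abca1 had the largest change of any member in acid without IL-2. It had 32.6, 28.04, 22.3, 30.4 and 24.0 CPM at pH 7.4 and 2.90, 2.81, 1.18, 2.29 and 2.87 CPM at pH 6.6. The 2 groups were an order of magnitude apart, an 11.5-fold fall (log2 fold change -3.53, SE 0.18, adjusted p = 6.3e-17 by edgeR). Mylip fell from 76.1, 53.6, 61.0, 50.5 and 51.9 CPM to 37.4, 29.4, 30.5, 26.4 and 30.1 CPM, a log2 fold change of -0.93 (SE 0.09). Abcg1 fell by 0.41 (SE 0.10), from 44.7 ± 7.04 to 33.4 ± 3.85 CPM (SD, n = 5), with overlapping groups. Without IL-2, the 6 macrophage and monocyte markers summed to 1.71 to 2.95 CPM at pH 7.4 and 2.27 to 3.99 CPM at pH 7. They summed to 0.547 to 1.72 CPM at pH 6.6 without IL-2 and 0.369 to 0.703 CPM at pH 7.4 with IL-2. Like Abca1, they had a lower median in these last 2 groups than at pH 7.4 without IL-2. At pH 7 without IL-2 their median sum was higher, 2.73 against 2.36 CPM, whereas Abca1 was lower. Most of the sum at pH 7.4 without IL-2 was Itgam, with a median of 2.07 CPM. Csf1r and Marco were at 0 in all 5 libraries at pH 7.4 without IL-2 and in all 5 with IL-2, and Lyz2 was at 0 in 4 of 5 in each. Adgre1 was detected in all 5 libraries at pH 7.4 without IL-2, at 0.032 to 0.167 CPM, and was at 0 in 4 of 5 libraries at pH 6.6 without IL-2 and in 4 of 5 at pH 7.4 with IL-2. Cd14 was detected in every library, with medians between 0.240 and 0.636 CPM over the groups. The part of other cell types in the fall of Abca1 was not tested.

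**Figure D3:**
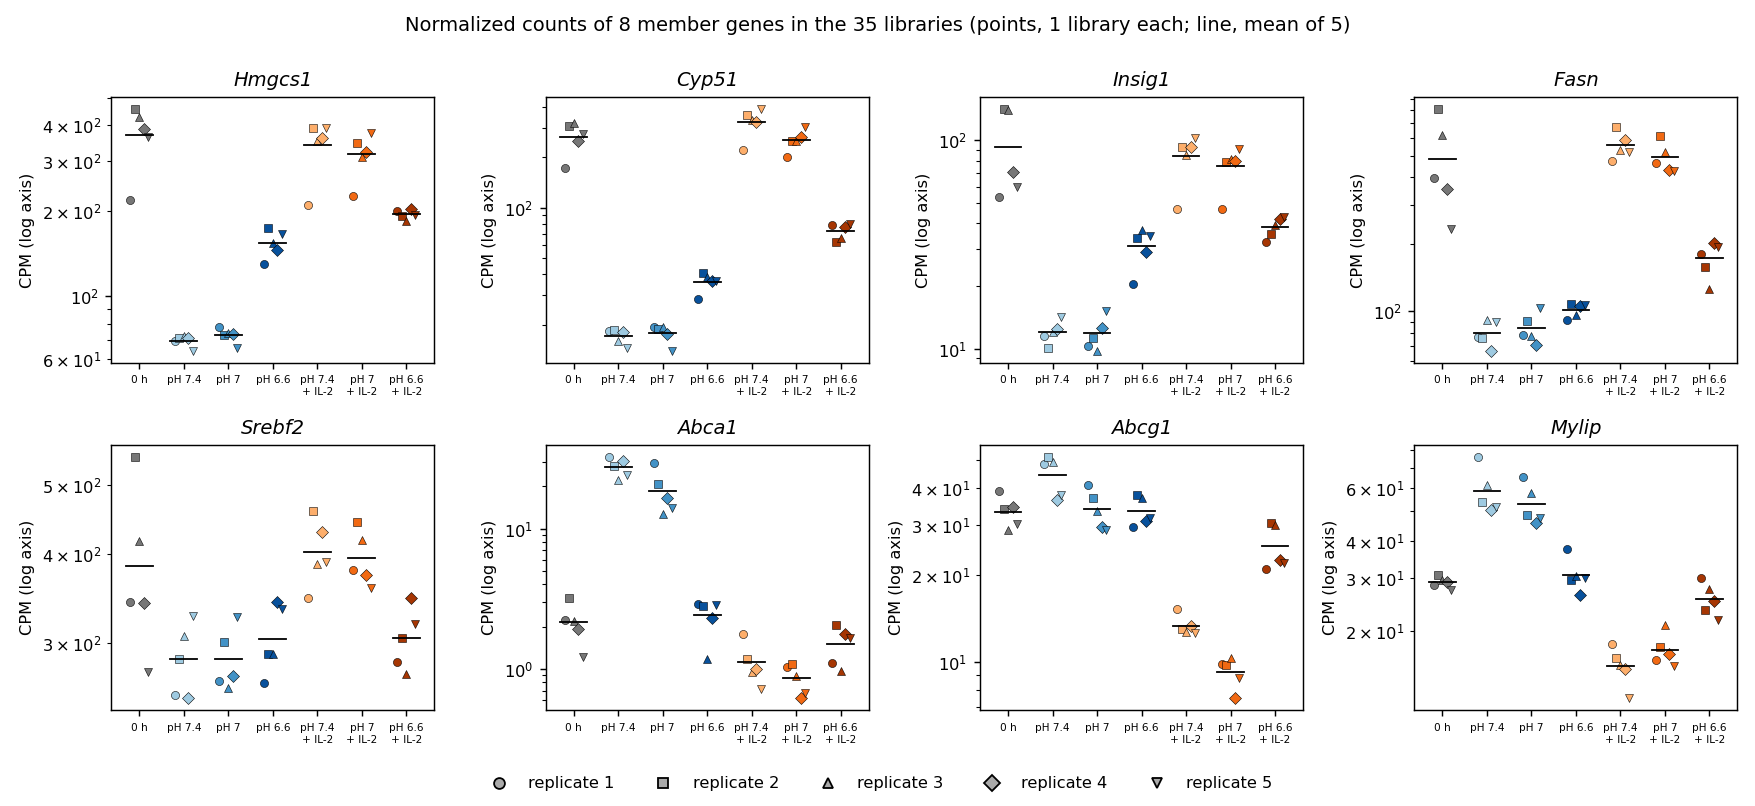
CPM on a log axis in each of the 35 libraries (points, shaped by replicate number) with the group mean (line) for 5 genes of synthesis and its control and for Abca1, Abcg1 and Mylip, over the 7 groups on the x axis. Abca1 is above 12 CPM only at pH 7.4 and pH 7 without IL-2, and replicate 1 is the lowest point for Hmgcs1, Cyp51 and Insig1 at pH 7.4 with IL-2.

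At pH 7 without IL-2 there was little change. In the comparison with pH 7.4 without IL-2, 1.36% of all genes were called higher and 0.318% lower. Of the 24 synthesis enzymes, 0 were called in either direction by edgeR, 0 had an unadjusted p under 0.05, and 0 were called by DESeq2, and their log2 fold changes lay between -0.18 and 0.24. Abca1, with 29.5, 20.8, 12.7, 16.5 and 14.1 CPM at pH 7, was lower in 5 of 5 pairs (-0.60, SE 0.15, adjusted p = 0.025 by edgeR), with groups that overlap. Abcg1 was lower by 0.39 (SE 0.10, adjusted p = 0.031). Both calls were lost without the replicate block and without each of replicates 2 to 5.

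The comparison with and without IL-2 at pH 7.4 asked what the cytokine does for the pathway at neutral pH, and of the 11 comparisons made it gave the median of the synthesis enzymes farthest from 0. Cells with IL-2 had more of 23 of the 24 enzymes, of all 4 genes of the SREBP system and of Stard4, and less of Abca1, Abcg1, Mylip and Nr1h2. In this comparison 39.3% of all genes were called higher and 41.1% lower, against 28 and 4 of the 33 members. The median of the synthesis enzymes was 2.10 on the log2 scale (2.08 without replicate 1). It shares its libraries at pH 7.4 with the acid comparisons, so the values stand side by side and are not independent of them. Cyp51 rose by 4.23 (SE 0.15) from 17.1 ± 1.83 to 326 ± 62.6 CPM (SD, n = 5), Hsd17b7 by 3.80 (SE 0.26), Idi1 by 3.76 (SE 0.32) and Sqle by 3.19 (SE 0.12). Idi1 rested on 8 to 25 counts per library without IL-2. Fdps rose by 2.90, Scd1 by 2.82, Fasn by 2.79, Insig1 by 2.75, Lss by 2.73, Msmo1 by 2.71, Mvd by 2.27, Hmgcs1 by 2.26 and Acaca by 2.22. The genes of the transcription factors had smaller rises, Srebf1 of 1.20 and Srebf2 of 0.49, and Scap, the gene of their escort, one of 0.35. Among the enzymes Tm7sf2 rose least, by 0.50, and Elovl6 did not pass the test (0.18, SE 0.12). Abca1 was lower by 4.63 on the log2 scale (SE 0.20, adjusted p = 1.5e-22 by edgeR), Mylip by 1.93, Abcg1 by 1.73 and Nr1h2 by 0.32, of which the call of Nr1h2 was lost without replicate 3 or replicate 5. The share of reads that fell in no counted feature was 7.70 to 10.2% without IL-2, against 3.91 to 5.18% with it. Its part in these differences was not tested.

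At pH 7 the response to IL-2 was of the same kind, with 26 members higher and 3 lower where 37.6% of all genes were higher and 39.5% lower. The median of the synthesis enzymes was 1.78, and Idi1 (3.99), Cyp51 (3.81), Hsd17b7 (3.60) and Abca1 (-4.40) had the largest differences. At pH 6.6 the response was much reduced. There 15 members were higher and 3 lower, where 13.2% of all genes were higher and 10.6% lower, and the median of the synthesis enzymes was 0.37. Hsd17b7 had the largest difference there, 2.83 (SE 0.30), followed by Lss at 1.48 (SE 0.14), Idi1 at 1.35 (SE 0.32) and Cyp51 at 1.02 (SE 0.13). Scd2 (-0.01, SE 0.12), Pmvk (-0.03, SE 0.12), Srebf1 (0.00, SE 0.12), Srebf2 (0.01, SE 0.11), Fdft1 (0.08, SE 0.10) and Insig1 (0.33, SE 0.18) did not pass the test. Abcg1 was lower by 0.41. Abca1 was lower by 0.63 and Mylip by 0.27, but both calls were lost without the replicate block and without replicate 1, 2 or 5, and that of Abca1 without replicate 4 as well. The rises of Hmgcs1 (0.35), Mvd (0.40) and Acly (0.21) were also lost without the block, with the looser filter and without some single replicates. With only the groups compared, Insig1 came past the threshold (0.355, adjusted p = 0.0044 by edgeR). Nsdhl, Ebp, Sc5d, Scap, Elovl6 and Scd1 (0.149 to 0.298) did so too as higher, and Tm7sf2 (-0.22) as lower.

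**Figure D4:**
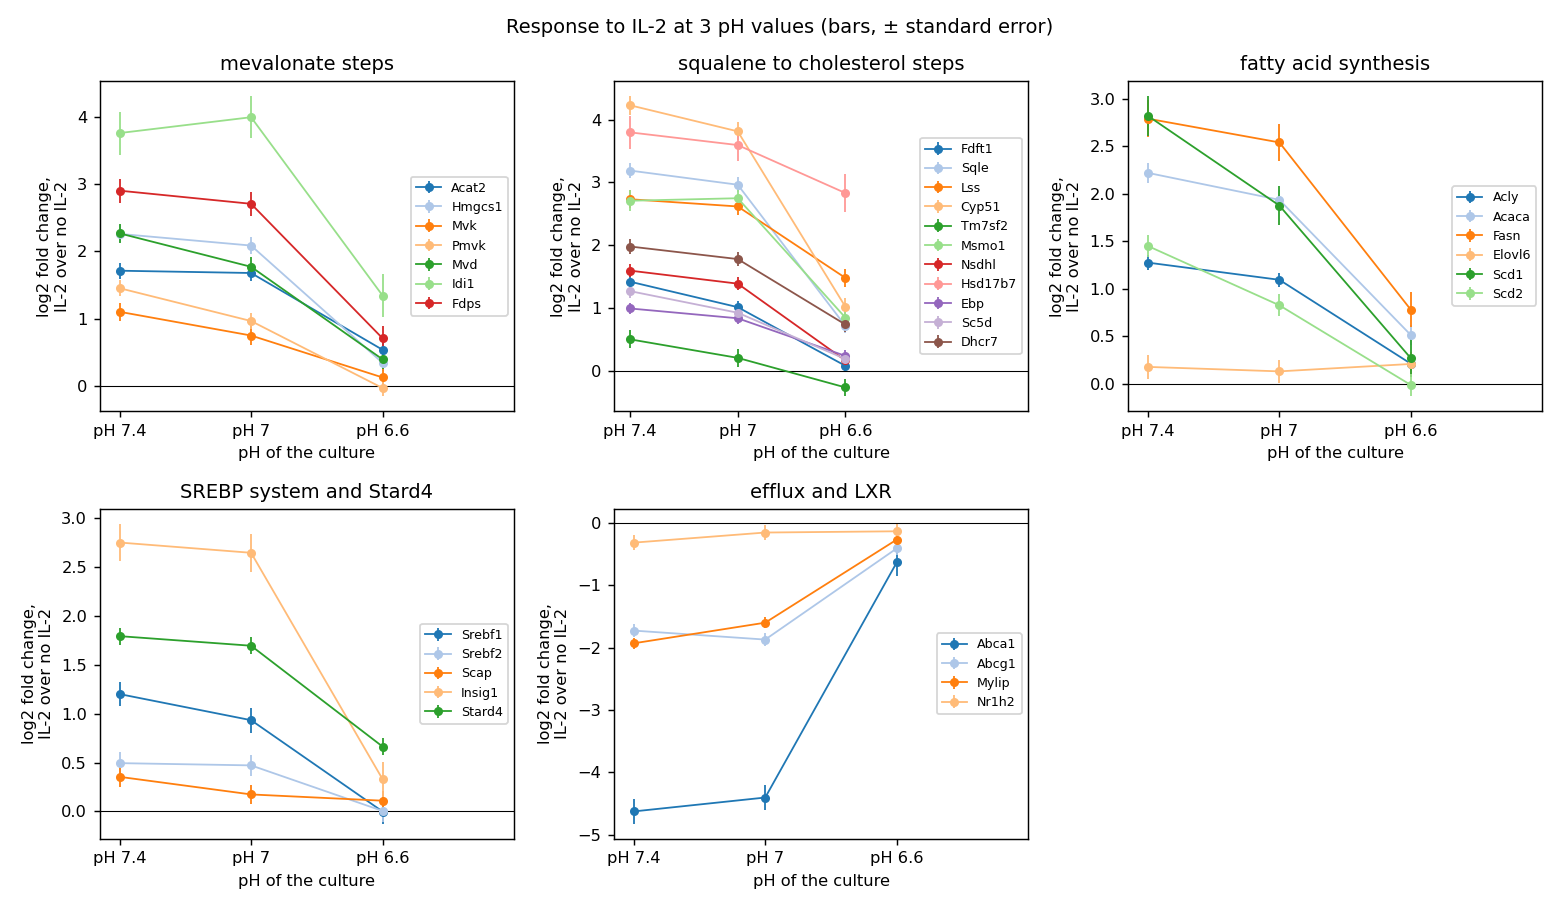
Log2 fold change of IL-2 over no IL-2 (y axis, bars are the standard error of the fit) at pH 7.4, pH 7 and pH 6.6 (x axis) for each gene, in 5 panels by role. Most lines lie close at pH 7.4 and pH 7 and nearer 0 at pH 6.6, where Hsd17b7 is the highest, at 2.83.

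Whether acid acted differently with and without IL-2 was tested as the interaction, which is also the difference of the IL-2 responses at pH 6.6 and pH 7.4. Of all genes, 34.3% had a positive and 32.8% a negative interaction, against 3 and 27 of the 33 members. The positive ones were Abca1 (3.99, SE 0.30), Mylip (1.66, SE 0.12) and Abcg1 (1.32, SE 0.14). All 18 cholesterol synthesis enzymes had a negative interaction, with a median of -1.38, as did 5 of the 6 fatty acid enzymes. The most negative were Cyp51, Scd1 (-2.55, SE 0.28), Sqle (-2.47, SE 0.16), Insig1 (-2.42, SE 0.26) and Idi1 (-2.41, SE 0.47). Elovl6 (0.03, SE 0.18), Scap (-0.24, SE 0.14) and Nr1h2 (0.18, SE 0.17) did not pass the test. The calls of Hsd17b7 (-0.96, SE 0.41) and Srebf2 (-0.49, SE 0.16) were lost under some alternatives.

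Cells in acid with IL-2 were also set beside neutral cells without it, since both had low synthesis genes. In this comparison 30.4% of all genes were higher and 34.1% lower, against 24 and 7 members. Most of the enzymes stood higher in acid with IL-2, with a median of 0.64: Cyp51 by 2.09, Idi1 by 1.97, Sqle by 1.55, Msmo1 by 1.51, Hsd17b7 by 1.5 and Hmgcs1 by 1.48. Elovl6 (-0.55), Scap (-0.52), Mvk (-0.42) and Ebp (-0.32) stood lower, although the calls of Mvk and Ebp were lost without 1 replicate or another. Abca1 was lower by 4.16, Mylip by 1.19 and Abcg1 by 0.82.

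Against the cells at 0 h, 24 h with IL-2 at pH 7.4 left the enzymes near their starting level, with a median of 0.19, where 29% of all genes were higher and 30.9% lower and 8 members were higher and 5 lower. Nsdhl (0.62), Acly (0.58), Acaca (0.58), Ebp (0.47) and Dhcr7 (0.47) rose, while Scd2 fell by 0.44 and Abcg1 by 1.31, Abca1 by 0.94, Mylip by 0.93 and Nr1h2 by 0.58. Without replicate 1, Pmvk (0.39), Fdft1 (0.28) and Sqle (0.20) also passed the test as higher. Mvd (0.06) and Idi1 (-0.10) did not pass it but changed sign. After 24 h without IL-2 at pH 7.4, 27 members were lower and 3 higher, where 38.3% of all genes were lower and 36.9% higher, with a median of -1.76 for the synthesis enzymes. The log2 fold change was -3.93 for Cyp51, -3.59 for Hsd17b7, -3.55 for Idi1, -2.98 for Sqle and -2.90 for Fdps. The genes that rose were the 3 efflux genes, with Abca1 up from 2.15 ± 0.711 to 27.5 ± 4.30 CPM (SD, n = 5), a log2 fold change of 3.69 (SE 0.18), Mylip by 1.00 and Abcg1 by 0.41. At 0 h the spread between replicates was wide for Fasn, with 395, 808, 619, 354 and 235 CPM.

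Genes that work beside these enzymes were taken as lists, without a test of any list, and their counts stand against 35.4% of all genes called higher and 40.9% lower. Of 15 genes of fatty acid elongation, desaturation and supply, 11 fell and 3 rose at pH 6.6 with IL-2, with a median of -0.64. Fads2, a desaturase of polyunsaturated fatty acids, fell from 108 ± 22.1 to 18.3 ± 3.12 CPM (SD, n = 5), or 5.84-fold, and Hsd17b12, a reductase of the elongation cycle, fell 5.14-fold. Elovl7 rose 3.54-fold and Acss2, which makes acetyl-CoA from acetate, 1.81-fold. Of 12 genes of the isoprenoid branch 9 fell and 1 rose, with Coq2 down by 0.95 and Nus1 by 0.79. Of 8 genes of SREBP processing 4 rose and 3 fell, and their number is too small to set apart from those shares. Erlin1, a membrane protein that binds SCAP and INSIG, fell by 1.64 and Sec23a, a subunit of the coat that carries SCAP to the Golgi apparatus, rose by 1.03.

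Of the 11 LXR and oxysterol genes listed, 7 were tested, and 5 rose and 2 fell at pH 6.6 with IL-2, again against 35.4% and 40.9% of all genes. Smpdl3a, a phosphodiesterase induced by LXR, had 11.7 ± 3.39 CPM at pH 7.4 and 58.6 ± 7.45 CPM at pH 6.6 with IL-2 (SD, n = 5), a 5.04-fold rise, and Abca7 rose 3.27-fold. Lpcat3, another LXR target, went the other way, with a 2.91-fold fall. Of 10 genes of sterol handling and esters, 6 rose and 2 fell, with Npc2, a lysosomal sterol carrier, up 2.38-fold and Soat2 down by 0.78 on the log2 scale. Of 7 genes of glycerolipid assembly 3 rose and 4 fell. Dgat1, which makes triglycerides, rose from 25.4 ± 3.32 to 196 ± 31.6 CPM, or 7.66-fold, the largest rise among the genes named from these lists. Of 16 genes of fatty acid oxidation 8 rose and 4 fell. Cpt1a, the gate for import of fatty acids into mitochondria, rose 2.65-fold, whereas Etfa fell by 0.98.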

How the data were processed

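RNA was sequenced from 35 libraries of OT-I CTLs in 7 groups of 5 replicates, prepared with a stranded kit for polyadenylated RNA and read as single reads on a HiSeq instrument. The authors deposited raw counts per gene, without normalization. The submitters' processing notes name cutadapt 1.8, STAR 2.5.2b, HTSeq 0.6.1 and GRCm38. The annotation release and the strand setting are not given in the sources used here. Library sizes exclude the closing entries of each file, which are not genes: no feature (2.58 to 11.1% of reads), ambiguous (0.871 to 0.997%) and aligned to several places (32.8 to 48.3%). Depth was 16721319 to 34033340 counts on genes per library. Symbols and coordinates came from GENCODE M21 (GRCm38), which matched 48349 of 48709 identifiers. Exon lengths are those of all exons of a gene merged.

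In R 4.3.3, edgeR 4.0.16 kept 13819 genes (filterByExpr, minimum count 10), with TMM normalization. All 35 libraries entered a robust quasi-likelihood fit blocked on replicate number, and p-values were adjusted by Benjamini-Hochberg over all genes, with calls at 0.05. CPM on the log2 scale have a prior count of 2. The block was checked: for the acid comparison with IL-2, deviations of same-numbered libraries had r of 0.198 to 0.416, and 95 of 105 same-numbered pairs overall had r over 0.1 (median 0.273, against -0.075 for different numbers). The labels number the replicates but do not state that a number marks 1 culture. A check for duplicated libraries over 70 pairs gave a chi-square per gene of at least 6.65. The common biological coefficient of variation was 0.12.

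The member genes and all lists were chosen with earlier results of these data known. All 33 members are named. From each other list, at most the 2 largest rises and falls in pH 6.6 against pH 7.4 with IL-2 and in IL-2 against none at pH 7.4 could be named, if their average log2 CPM reached 3 and all 5 pairs shared the sign. Settings also tried were DESeq2 1.42.0, RLE normalization, 2 other filters, only the groups compared, no replicate block and leaving out each replicate.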

Additional observations from a re-analysis of the deposited data

Results flagged for a closer look

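In 13 of 231 combinations of a member gene and a group, 1 library lay far from the other 4 on the log2 CPM scale, where chance gives about 1 in 20. Replicate 1 was the low library in 12 of them. At pH 7.4 with IL-2 its log2 CPM was 7.71 for Hmgcs1, 6.99 for Sqle, 6.15 for Msmo1, 6.46 for Sc5d, 5.55 for Insig1 and 9.43 for Scd2, and Insig1 was at 5.55 at pH 7 with IL-2 as well. At 0 h replicate 1 had 6.81 for Sqle and 6.40 for Msmo1. Without IL-2 it had 4.51 for Msmo1 at pH 6.6, and 4.54 for Fdft1 and 4.98 for Ebp at pH 7. The remaining case was replicate 3 at pH 6.6 without IL-2, with 0.33 for Abca1. In the comparisons of pH 6.6 with pH 7.4, the median of the synthesis enzymes with IL-2 was -1.36 with replicate 1 and -1.39 without it, and without IL-2 it was 0.33 and 0.32.

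Acid at pH 6.6 had a different effect in the presence and absence of IL-2 for 30 of the 33 members by the interaction test of edgeR's quasi-likelihood fit, where 34.3% of all genes had a positive and 32.8% a negative interaction. On the log2 scale the interaction in the mevalonate steps was -1.17 for Acat2, -1.91 for Hmgcs1, -0.97 for Mvk, -1.48 for Pmvk, -1.87 for Mvd, -2.41 for Idi1 and -2.19 for Fdps. From squalene to cholesterol it was -1.34 for Fdft1, -2.47 for Sqle, -1.25 for Lss, -3.2 for Cyp51, -0.77 for Tm7sf2, -1.86 for Msmo1, -1.43 for Nsdhl, -0.96 for Hsd17b7, -0.75 for Ebp, -1.08 for Sc5d and -1.24 for Dhcr7. Among the fatty acid enzymes it was -1.06 for Acly, -1.71 for Acaca, -2.01 for Fasn, -2.55 for Scd1 and -1.46 for Scd2. Among regulators and carriers it was -1.20 for Srebf1, -0.49 for Srebf2, -2.42 for Insig1 and -1.13 for Stard4. The efflux genes had positive values, 3.99 for Abca1, 1.32 for Abcg1 and 1.66 for Mylip.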

How the results depend on the processing

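Of the values for single members under the alternatives, 3852 kept their direction and their side of the threshold, 90 were no longer past it, 32 came past it, 8 without a call moved, and 0 called values reversed. Idi1 has no values under the stricter filter, which asked for at least 10 counts in every library. The calls at pH 7 were the least stable. With IL-2, 7 members were lower, against 4 with the looser filter, 3 with no replicate block and 3 to 10 with 1 replicate left out. Members higher there numbered 0, against 1 with only the groups compared and 0 to 1 with 1 replicate left out. Without IL-2, 2 members were lower at pH 7, against 0 with no replicate block and 0 to 2 with 1 replicate left out. For IL-2 at pH 6.6, 3 members were lower, against 1 with no replicate block and 1 to 3 with 1 replicate left out. The cause of these changes was not tested. Over all genes, calls at pH 7 with IL-2 went from 2623 to 1660 without the block and 4388 with only the groups compared, and to 1374 without replicate 2 and 1283 without replicate 3. At pH 7 without IL-2 they went from 232 to 56 without the block, 942 with only the groups compared, and 35, 90, 141 and 154 without replicates 2, 3, 4 and 5. For IL-2 at pH 6.6 they went from 3278 to 5369 with only the groups compared and 2119 without replicate 4. Low counts limit Idi1 without IL-2 and Abca1 with IL-2.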
